A study of Homo sapiens with 8 samples.

Results

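The bodies of 5 long genes were followed through the loss of DNA methylation in HUES64 cells, an established human embryonic stem cell line. RPTOR and MAD1L1 were taken as examples of genes in general use by cells, and PRDM16, CSMD1 and RBFOX1 as examples of genes tied to particular lineages. The members are the 4225 CpGs inside these genes, 2 kb in from each end, that had 10 or more reads on days 0, 1, 2, 6 and 7 and stood at 80% methylation or more in the pooled reads of days 0 and 1. They are 4225 of the 1038645 autosomal CpGs that passed the same read and level limits, and of 3209182 CpGs listed in any library. The working description of the genes as expressed or silent could not be checked here, because these files measure DNA and hold no RNA.

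All 8 libraries come from cells labelled as a DNMT1 knockout, sampled on days 0 to 7 after withdrawal of DNMT1*, with 1 library per day and no replicate. DNMT1* is an exogenous copy of DNMT1 that keeps the knockout line alive, so the day 0 cells carry the knockout too. The labels name no clone, passage or batch. Methylation was read by reduced representation bisulfite sequencing (RRBS), which cuts DNA at CCGG with the enzyme MspI and so favours CpG-rich places. The libraries of days 0, 1, 2, 6 and 7 were deep, at 77691782 to 161534152 CpG read calls. Those of days 3, 4 and 5 were shallow, at 12359218 to 15156251, where the median listed CpG had 4 reads. Errors below are counting errors from the reads, which are not independent molecules, and they do not cover variation between courses.

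DNMT1 is the maintenance methyltransferase, which restores methylation on newly made strands when DNA is replicated. Without it, methylation is diluted by cell division unless it is put back by the de novo enzymes DNMT3A and DNMT3B. The bodies of transcribed genes are generally methylated while their CpG-rich starts are not, and transcribed bodies carry a histone mark, methylated lysine 36 of histone H3, that the de novo enzymes can bind. This is background and was not measured here.

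The 5 genes differ in size and in how much of them RRBS reads (hg19 positions). RPTOR encodes Raptor, the scaffold of the growth-regulating kinase complex mTORC1, and spans chr17:78518619-78940171 on the plus strand. MAD1L1 encodes a protein of the spindle checkpoint, which holds back chromosome separation in mitosis, and spans chr7:1855429-2272878 on the minus strand. PRDM16 encodes a zinc finger regulator known from brown fat and from stem cells of blood and brain, and spans chr1:2985742-3355185 on the plus strand. CSMD1 encodes a large membrane protein with CUB and sushi domains that is prominent in brain, and spans chr8:2792875-4852328 on the minus strand. RBFOX1 encodes an RNA-binding splicing regulator of neurons and muscle, and spans chr16:6069132-7763340 on the plus strand.

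RPTOR held 711 member CpGs, MAD1L1 1463, PRDM16 1248, CSMD1 479 and RBFOX1 324. Per 10 kb that was 17.03, 35.4, 34.2, 2.33 and 1.92 members, so the 2 longest genes were the most thinly read. Members were 74.4% of the CpGs with enough reads in RPTOR and 79.7% in MAD1L1, against 58.4% in PRDM16, 58.7% in CSMD1 and 58.7% in RBFOX1, and 41.6% over all autosomes. Members at 90% or more made up 41.2% in RPTOR and 37.0% in MAD1L1, against 18.3% in PRDM16, 22.1% in CSMD1, 23.1% in RBFOX1 and 29.1% over the autosomes. These shares come from days 0 and 1, the libraries that chose the members, and are a description only. The median day 0 reads per member CpG were 49 to 62 in the 5 genes and 54 over the autosomes.

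The starts at the 5′ ends of the spans, which the choice of members left out, are shown because their CpG content and methylation set them apart from the bodies. RefSeq promoter windows of GRCh38.p14, from 250 bases before the start to 50 after it, were found by symbol for 3 of the 5 genes. They are printed 5′ to 3′ on the strand of the gene, with every CpG in capitals. The RPTOR window is chr17:80544588-80544887 (plus strand), that of MAD1L1 chr7:2232896-2233195 (minus strand), and the first of the 5 listed for RBFOX1 chr16:6018774-6019073 (plus strand).
RPTOR: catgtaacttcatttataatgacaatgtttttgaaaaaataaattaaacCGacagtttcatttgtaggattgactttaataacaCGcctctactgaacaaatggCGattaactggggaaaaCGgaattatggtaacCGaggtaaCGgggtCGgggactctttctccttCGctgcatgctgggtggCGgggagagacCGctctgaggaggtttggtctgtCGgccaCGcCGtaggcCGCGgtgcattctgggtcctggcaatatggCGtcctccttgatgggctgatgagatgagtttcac
MAD1L1: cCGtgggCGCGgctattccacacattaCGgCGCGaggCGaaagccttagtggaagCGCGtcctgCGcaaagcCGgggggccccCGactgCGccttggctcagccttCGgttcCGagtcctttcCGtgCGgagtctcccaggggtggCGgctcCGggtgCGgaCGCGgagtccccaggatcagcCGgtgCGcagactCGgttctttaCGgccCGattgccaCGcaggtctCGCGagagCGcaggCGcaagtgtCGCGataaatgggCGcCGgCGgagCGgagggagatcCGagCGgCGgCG
RBFOX1: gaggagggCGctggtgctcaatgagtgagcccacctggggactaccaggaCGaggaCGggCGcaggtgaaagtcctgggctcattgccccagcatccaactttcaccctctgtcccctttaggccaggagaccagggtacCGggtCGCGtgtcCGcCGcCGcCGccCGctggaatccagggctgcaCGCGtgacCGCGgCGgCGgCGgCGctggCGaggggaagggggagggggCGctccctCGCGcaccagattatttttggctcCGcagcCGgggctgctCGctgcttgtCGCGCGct
The windows hold 16, 42 and 30 CpGs, against a median of 14 over the 35116 promoter windows of the table. The MspI site CCGG, which reads the same on both strands and always holds a CpG, occurs 0, 4 and 2 times in them, and 63.1% of all windows hold at least 1. A match is a description of the letters and not of cutting in these libraries. Another RBFOX1 window, chr16:6483136-6483435, holds 38 CpGs and lies further inside the gene. That internal start was therefore not left out with the 5′ end.

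In the first 2 kb of the hg19 spans, methylation was low at all 5 genes on day 0. RPTOR read 0 methylated of 483 reads over 8 CpGs and MAD1L1 0 of 2296 over 37 CpGs. Taking 3 reads as the limit that a count of 0 allows, these starts could hold up to 0.621% and 0.131%, and the Wilson 95% upper limits are 0.789% and 0.167%. PRDM16 read 0.877% (Wilson 95% interval 0.682 to 1.13%, 126 CpGs), CSMD1 0.288% (0.139 to 0.592%, 45 CpGs) and RBFOX1 4.53% (3.68 to 5.56%, 38 CpGs). On day 7 the same starts read 0 of 537 reads in RPTOR, with up to 0.559% by the same limit of 3 reads, and 1 of 1903 reads in MAD1L1 (Wilson 95% interval 0.00928 to 0.297%). The others read 0.938% in PRDM16, 0.161% in CSMD1 and 0.366% in RBFOX1. All 5 starts were thus low at both ends of the course, unlike the bodies. The last 2 kb could be read in RPTOR and MAD1L1 and started near the level of the bodies, with 89.7% and 86.7% on day 0. On day 7 they read 20.9% in RPTOR and 12.3% in MAD1L1.

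Methylation of the 5 bodies fell from day to day and spread apart late in the course. In RPTOR the mean over member CpGs on days 0 to 7 was 90.2%, 85.6%, 75.7%, 53.9%, 39.98%, 37.0%, 26.2% and 22.5%. In MAD1L1 it was 89.96%, 84.8%, 74.6%, 53.9%, 38.6%, 31.5%, 25.6% and 21.3%. Both stood above the other autosomal CpGs of the same kind on days 6 and 7, where these had 22.3% and 18.7%. In PRDM16 the mean was 87.9%, 83.3%, 70.9%, 49.2%, 30.3%, 24.5%, 16.6% and 13.1%, below the other autosomal CpGs on every day. In CSMD1 it was 88.2%, 84.6%, 74.5%, 55.2%, 40.5%, 31.98%, 21.7% and 17.5%, and in RBFOX1 88.5%, 83.2%, 74.4%, 52.5%, 35.3%, 33.8%, 20.7% and 17.6%. These 2 neuronal genes stayed close to the autosomal course, which ran from 88.9% to 18.7%. The counting SE was 0.106 to 0.462 points on the 5 deep days and 0.656 to 1.67 points on days 3, 4 and 5.

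**Figure D1:**
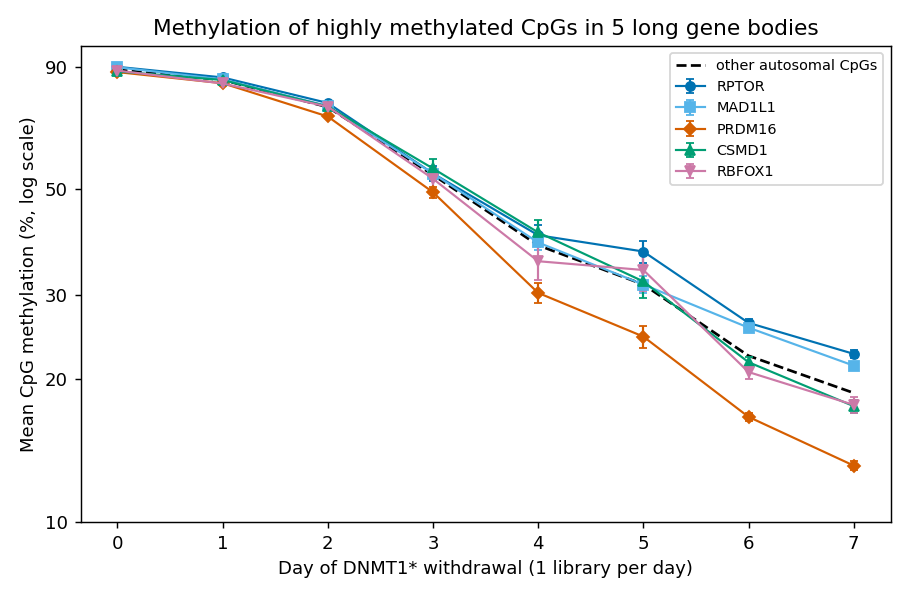
Mean methylation (%, log scale) of member CpGs in each gene body on days 0 to 7, with 95% counting intervals, and of the other autosomal CpGs chosen by the same limits (dashed). PRDM16 ends lowest, at 13.1%, and RPTOR and MAD1L1 end highest, at 22.5% and 21.3%.

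From day 2, a library that did not choose the members, to day 7, the other autosomal CpGs kept 25.2% of their level. RPTOR kept 29.8 ± 0.33% (counting SE), MAD1L1 28.6 ± 0.22%, PRDM16 18.5 ± 0.21%, CSMD1 23.5 ± 0.38% and RBFOX1 23.7 ± 0.48%. The 95% counting intervals of CSMD1, 22.8 to 24.3%, and RBFOX1, 22.8 to 24.6%, overlapped each other and none of the other 3. Over the first 2 days the order was another one, with 84.0% of the day 0 level kept in RPTOR, 82.9% in MAD1L1, 80.7% in PRDM16, 84.5% in CSMD1 and 84.0% in RBFOX1. The shortfall of PRDM16 was thus present by day 2, and the excess of MAD1L1 was not.

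Since loss depends somewhat on how many CpGs a region holds, each gene was set against other autosomal CpGs at equal tile CpG count. CpGs were put in 5 classes by the number of CpGs listed in their 1-kb tile (1 to 4, 5 to 9, 10 to 19, 20 to 39, and 40 or more). The expected level was the class mean of the other autosomal CpGs, weighted by the classes of the gene. On day 7 RPTOR stood 3.83 points above its expected level (95% counting interval 3.37 to 4.30) and MAD1L1 2.51 points above (2.20 to 2.83). The difference was -5.56 points in PRDM16 (-5.84 to -5.27), -1.27 points in CSMD1 (-1.80 to -0.739) and -1.11 points in RBFOX1 (-1.79 to -0.440), all below expected. As ratios of observed to expected, these are 1.205, 1.13, 0.703, 0.932 and 0.941.

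The differences did not arise at the same time, and some were present on day 0, a library that chose the members. RPTOR then stood 1.23 points above its expected level and MAD1L1 1.02 points above. The day 0 difference was -1.10 points in PRDM16, -0.630 in CSMD1 and -0.267 (-0.773 to 0.238) in RBFOX1. PRDM16 differed from its expected level by -3.95 points on day 2 and by -5.10, -8.41 and -7.20 points on days 3, 4 and 5, with intervals that stayed below 0 on each day. RPTOR was 1.12 points above on day 2, not distinguishable from its expected level on days 3 and 4, and 5.31 points above on day 5 (3.36 to 7.25). MAD1L1 lay within counting error of its expected level from day 1 to day 5, at -0.21 points (-1.53 to 1.11) on day 5, and was 3.03 points above on day 6 (2.70 to 3.37). CSMD1 was above its expected level on days 2 and 4, by 0.851 and 2.93 points, and below it on days 6 and 7, by -0.665 points (-1.22 to -0.106) on day 6. Its day 2 value was 0.240 points (SE 0.289) without tile classes, 1.47 points with 5 or more reads per CpG and -0.251 points (SE 0.683) among CpGs at 90% or more. RBFOX1 was below on day 1 (-1.06 points, -1.97 to -0.154), 1.003 points above on day 2 (0.303 to 1.70) and below on day 6 (-1.56 points, -2.26 to -0.866). Its day 2 value was within counting error of 0 without tile classes (0.145 points, SE 0.357), with 20 or more reads (0.655, SE 0.411) and among CpGs at 90% or more (0.567, SE 0.741). Days 3 to 5 are the shallow libraries, and their part in these day-to-day differences was not tested.

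**Figure D2:**
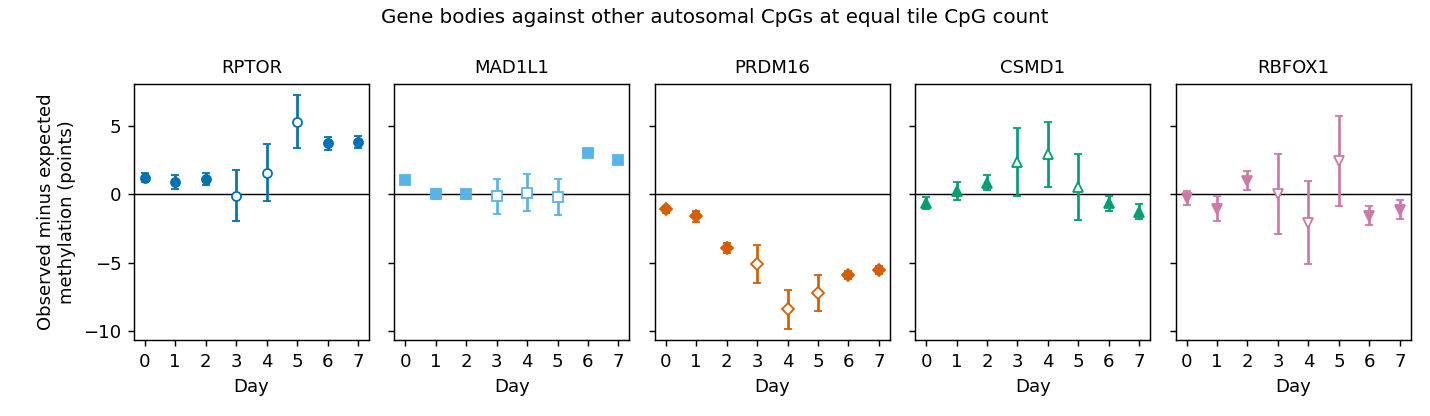
Observed minus expected methylation (points) on each day for the 5 gene bodies, with 95% counting intervals. Open symbols mark the shallow libraries of days 3 to 5. PRDM16 lies below 0 throughout, and MAD1L1 lies near 0 on days 1 to 5 and at 3.03 points on day 6.

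Within single tile classes the order of the genes was largely kept. PRDM16 kept 15.7 to 19.3% from day 2 to day 7 in its 5 classes, where the other autosomal CpGs kept 22.1 to 25.7%. RPTOR kept 27.1 to 30.7% in its 5 classes, and its day 7 excess ran from 0.998 points in tiles with 1 to 4 CpGs to 8.02 points in tiles with 40 or more, a class of 38 members. MAD1L1 was 3.61 points above the autosomes in tiles with 5 to 9 CpGs and 0.450 points above in tiles with 20 to 39. CSMD1 lay below, at -1.61 to -1.03 points, in the 3 classes where it has 20 or more members. RBFOX1 has 2 such classes, with -1.15 points in tiles with 1 to 4 CpGs and 0.500 points in tiles with 5 to 9.

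**Figure D3:**
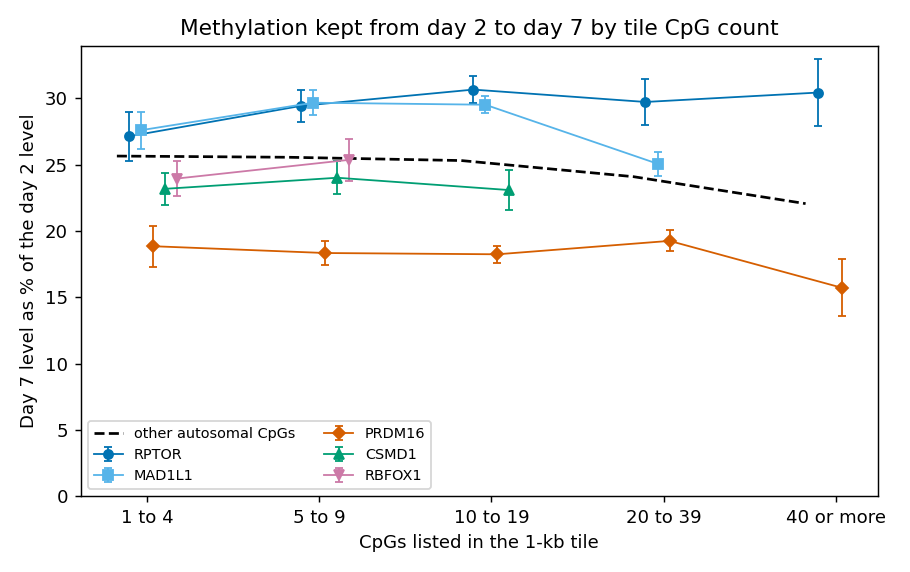
Day 7 level as a percentage of the day 2 level by number of CpGs listed in the 1-kb tile, with 95% counting intervals, for classes with 20 or more members. In each class shown PRDM16 lies lowest, at 15.7 to 19.3%, and the dashed line gives the other autosomal CpGs.

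All 5 genes could be set against each other in the classes with 1 to 4 and 5 to 9 CpGs, weighted as in the autosomes. On day 7 they then stood at 21.4 ± 0.30% (MAD1L1), 20.7 ± 0.39% (RPTOR), 18.5 ± 0.38% (RBFOX1), 17.5 ± 0.31% (CSMD1) and 12.99 ± 0.31% (PRDM16), each with its counting SE. Of the 10 pairs, only RPTOR and MAD1L1 had a 95% counting interval of the difference that held 0 (-1.66 to 0.282 points). CSMD1 and RBFOX1 differed by -1.004 points (-1.97 to -0.0344), and on day 6 by 0.416 points (-0.602 to 1.43), so their order was not stable. RPTOR and PRDM16 differed by 7.72 points (6.74 to 8.70), and MAD1L1 and CSMD1 by 3.94 points (3.09 to 4.80). On day 2 PRDM16 already stood below each of the other 4 genes, with 69.9% against 73.1 to 74.7%. Genes were chosen with results of these data known, so no p is given for a pair.

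The starting level was not equal either. Among members between 85 and 90% on days 0 and 1, day 7 levels were 20.8 ± 0.36% in RPTOR, 20.2 ± 0.24% in MAD1L1, 13.6 ± 0.22% in PRDM16, 17.8 ± 0.38% in CSMD1 and 17.9 ± 0.52% in RBFOX1, against 18.3% in the other autosomal CpGs. Classes by tile CpG count and by starting level below or from 90% left differences of 3.36 points in RPTOR and -5.05 points in PRDM16 on day 7. Starting level was not matched more finely than by this 1 split. Near the limit, PRDM16 CpGs just inside (80 to 82%) and just outside (78 to 80%) reached 10.7% and 11.2% on day 7, and those of RPTOR 18.2% and 16.2%.

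CpGs of the same bodies that started between 20% and 80% were not members. They come from the same genes and libraries, and were compared without classes of tile CpG count. They kept 16.1% from day 2 to day 7 in PRDM16 (741 CpGs), against 24.4% in the other autosomal CpGs of that class. RPTOR kept 26.0% (229 CpGs), MAD1L1 24.95% (362), CSMD1 24.4% (317) and RBFOX1 26.7% (175). In this class PRDM16 was again lowest, and RBFOX1, which was below the autosomes among members, was above them. MAD1L1, above the autosomes among members, and CSMD1, below them, lay close to the autosomal 24.4% here. No counting error was taken for these shares, so small differences among them are not settled.

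Whether rates differed from the autosomes was tested in one fit over all autosomal 50-kb windows with 20 or more qualifying CpGs and the 5 gene bodies. The log2 ratio of observed to expected level was regressed on day with limma, over the 6 libraries of days 2 to 7, which did not choose the CpGs. P values were adjusted by Benjamini-Hochberg over all rows, and a positive slope means slower loss than the autosomes. The genes themselves were chosen with results of these libraries known, so the p values describe scatter of the libraries round a line and are no independent evidence for these genes.

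PRDM16 changed by -0.082 ± 0.0079 log2 units per day (SE, limma adjusted p = 2.4e-07), RPTOR by 0.051 ± 0.0089 (limma adjusted p = 0.00026) and MAD1L1 by 0.039 ± 0.0079 (limma adjusted p = 0.0012). CSMD1, at -0.024 ± 0.0098, and RBFOX1, at -0.023 ± 0.011, did not pass (limma adjusted p = 0.12 and 0.19). PRDM16 passed without any 1 of the 6 days, with limma adjusted p of 0.0073 at most. RPTOR did not pass without day 7 (0.051, limma adjusted p = 0.15), and MAD1L1 passed neither without day 6 nor without day 7 (limma adjusted p = 0.18 and 0.28). With all libraries weighted alike none of the 5 bodies passed: PRDM16 had limma adjusted p = 0.06, RPTOR 0.19 and MAD1L1 0.38, at slopes of -0.081, 0.057 and 0.040. CSMD1 passed when CpGs needed 20 or more reads (-0.032, limma adjusted p = 0.032), and in fits beside 400-kb or 2-Mb windows (-0.029 and -0.032, limma adjusted p = 0.0082 and 0.00026). A two-sided exact permutation test of the 6 days, with 720 orders, unweighted and unadjusted, gave p = 0.0028 for PRDM16, the smallest it can give. It gave 0.011 for RPTOR, 0.1 for MAD1L1, 0.11 for CSMD1 and 0.39 for RBFOX1.

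Over all 8 days the slopes were -0.069 in PRDM16, 0.033 in RPTOR, 0.023 in MAD1L1, -0.0072 in CSMD1 and -0.0090 in RBFOX1. Days 0 and 1 chose the CpGs and had library weights of 3.98 and 28.2 in that fit, against 0.817 and 0.701 for days 6 and 7, so its slopes are a description and no p is given.

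Among the 15291 windows, 5.36% declined slower and 6.21% faster than the autosomes over days 2 to 7 at an adjusted p below 0.05. Of the windows wholly inside PRDM16, 7 of 7 were faster. MAD1L1 had 4 of 7 slower and RPTOR 2 of 7, with 0 faster in either. CSMD1 had 1 of 5 faster and RBFOX1 1 of 3, with 27 and 20 members in the called windows. Neither gene had a slower one. These counts are over the windows with enough CpGs, which cover most of the 3 shorter genes and little of the 2 longer ones. Without day 7, 2 PRDM16 windows and no other window of the 5 genes were called. Without day 6 no MAD1L1 window and 1 RPTOR window was called, and without day 2 there were 4 in PRDM16, 2 in MAD1L1 and 1 in RPTOR. Without day 3, MAD1L1 had 1. The CSMD1 and RBFOX1 windows were not called without day 2, 3, 6 or 7. CSMD1 had 2 faster windows without day 5. Of all 15291 windows, 55 were slower and 88 faster without day 7, and 127 and 149 without day 6. They numbered 303 and 234 without day 2, 332 and 350 without day 3, and 967 and 1114 without day 5. With libraries weighted alike limma called 0 windows, in the genes or elsewhere, while 1121 of all windows had an unadjusted p below 0.05, among them 6 in PRDM16, 3 in MAD1L1, 2 in RPTOR, 1 in RBFOX1 and 0 in CSMD1.

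**Figure D4:**
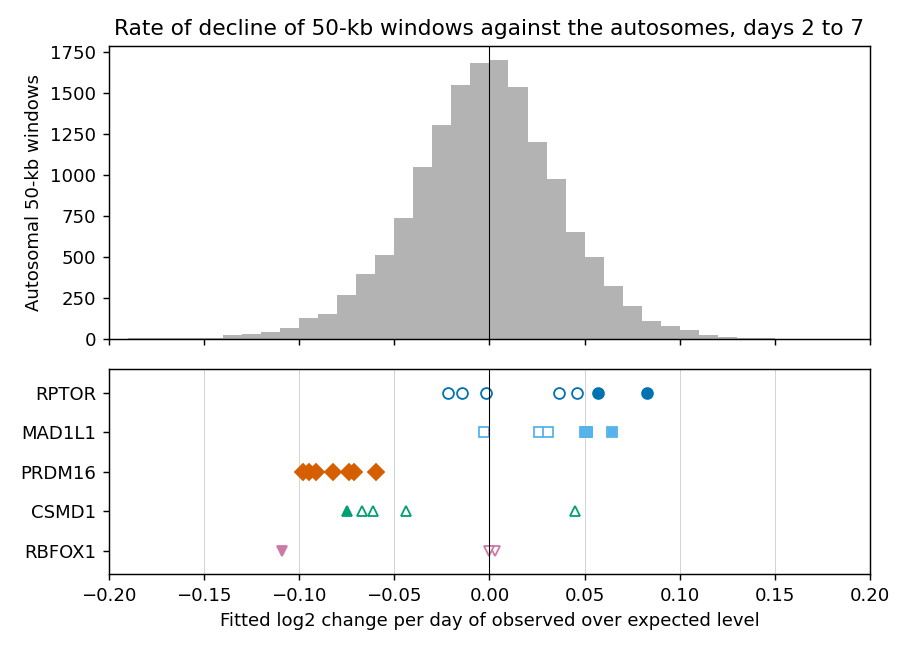
Fitted log2 change per day of observed over expected level, days 2 to 7, in all 15291 autosomal 50-kb windows (grey bars, counts) and in the windows inside each gene (symbols, filled where the adjusted p is below 0.05). The 7 PRDM16 windows lie at -0.098 to -0.060, and those of CSMD1 and RBFOX1 fall on both sides of 0.

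The windows of PRDM16 were alike and those of RPTOR were not. In PRDM16 the day 7 level was 0.665 to 0.731 of that expected in every window. Windows named here are those with the smallest and largest slope over all 8 days, unless another rule is given. In PRDM16 the smallest was at chr1:3050001-3100000, with 87.6%, 69.2% and 12.5% on days 0, 2 and 7. The largest was at chr1:3200001-3250000, with 87.4%, 72.4% and 13.3%. In RPTOR, chr17:78850001-78900000 had the largest slope, and over days 2 to 7 alone it had 0.083 log2 units per day (limma adjusted p = 1.89e-05). It stood at 25.5% on day 7 with 18.5% expected. The smallest RPTOR slope was at chr17:78650001-78700000, with 18.2% on day 7 and 18.8% expected. Over days 2 to 7 the smallest RPTOR slope was at chr17:78550001-78600000 (-0.022), with 17.6% against 18.8%. The RPTOR window lowest against its expected level on day 7 was chr17:78750001-78800000, with 16.5% against 18.8%.

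In MAD1L1 the largest slope was at chr7:2150001-2200000, with 23.2% on day 7 against 18.8% expected, and the smallest at chr7:2050001-2100000, with 18.4% against 18.8%. Over days 2 to 7 the largest MAD1L1 slope was at chr7:2200001-2250000 (0.064). CSMD1 held both kinds: chr8:2950001-3000000, near its 3′ end, stood at 24.9% on day 7 against 18.9% expected, and chr8:4350001-4400000 at 15.1% against 18.9%. Over days 2 to 7 the first did not pass (0.045, limma adjusted p = 0.328) and the second did (-0.075, limma adjusted p = 0.0444). In RBFOX1, chr16:6500001-6550000 had the smallest slope, at -0.11 over days 2 to 7 (limma adjusted p = 0.00863), and stood at 13.6% on day 7 against 18.5% expected. Its window with the largest slope, chr16:6650001-6700000, stood at 20.04% against 18.8% and did not pass (limma adjusted p = 0.996).

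Each gene body was cut in 5 equal segments from 5′ to 3′. In RPTOR the day 7 difference from the expected level rose along the gene, from -1.82 points in segment 1 to 0.832, 1.94, 4.38 and 5.87 points in segments 2 to 5, with counting SEs of 0.379 to 0.834 points. Segments 4 and 5 held 219 and 299 of its 711 members, so the value for the whole body is mainly that of its 3′ part. In MAD1L1 the highest difference was in segment 1, at 4.83 points, and the lowest in segment 5, at 1.204 points. PRDM16 had -5.77 to -5.36 points in all 5 segments. CSMD1 had -2.88 to -1.55 points in segments 1 to 4 and 1.54 points in segment 5. RBFOX1 ranged from -3.78 points in segment 4, which holds 40 members, to 1.55 points in segment 3.

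The 200 kb on either side, with whatever genes lie there, were measured in the same way. Beside RPTOR, CpGs were within 0.0501 points of the expected day 7 level upstream and 0.521 points above it downstream, where segment 5 of the gene had 5.87. Beside PRDM16 the difference was -6.07 points upstream, like the gene, and 1.04 points downstream. Beside MAD1L1 it was 2.38 points upstream and -3.56 points downstream. The low levels of PRDM16 thus extended past its 5′ end and not past its 3′ end, and the high levels of RPTOR were not found in either flank. CSMD1 had 0.786 points above upstream and 2.22 above downstream, from 48 and 42 CpGs. RBFOX1 had -0.777 points upstream, and its downstream flank held only 17 CpGs.

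**Figure D5:**
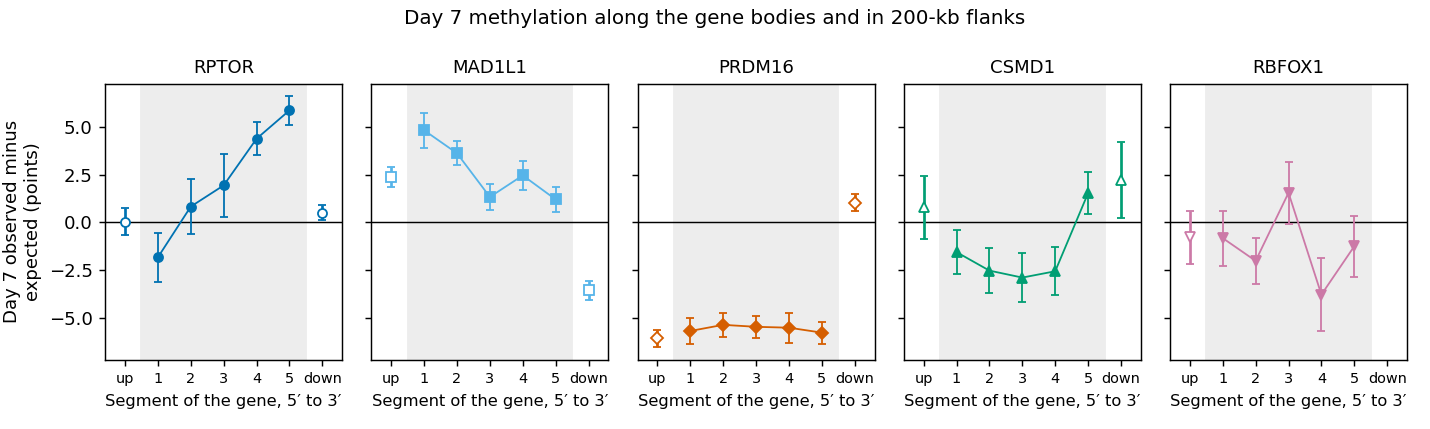
Day 7 observed minus expected methylation (points) in 5 equal segments of each gene from 5′ to 3′ (grey band, filled symbols) and in 200-kb flanks (open symbols), with 95% counting intervals. RPTOR rises from -1.82 to 5.87 points, and PRDM16 stays at -5.77 to -5.36 and goes to 1.04 points downstream.

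To place genes among regions of like length, the day 7 ratio of observed to expected was also taken in all autosomal windows of 400 kb and of 2 Mb with 100 or more qualifying CpGs, leaving out windows that touch the gene. The ratio of PRDM16, 0.703, was reached or undercut by 1 of 3115 windows of 400 kb. RPTOR, at 1.205, was reached or passed by 29 of 3115 and MAD1L1, at 1.13, by 119 of 3115. CSMD1 lay above 7.66% of 1370 windows of 2 Mb and RBFOX1 above 9.41% of 1371. On day 2 PRDM16 lay above 0.0642% of the 400-kb windows, RPTOR above 83.7% and MAD1L1 above 49.3%. These ranks describe 2 libraries of a single course.

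At a finer scale, 1-kb tiles with 3 or more qualifying CpGs were called high when the share kept from day 2 to days 6 and 7 was 25% or more above the median of their CpG class, and low when it was 20% or more below it. Over the autosomes 16.2% of 130458 tiles were high and 16.7% low. In RPTOR 30 of 94 tiles were high and 5 low, and in MAD1L1 55 of 193 were high and 6 low. In PRDM16 6 of 162 were high and 90 low. CSMD1 had 5 high and 15 low of 67, and RBFOX1 5 high and 11 low of 40. With limits of 1.5 and 0.67 times the median, high tiles numbered 10 in RPTOR, 18 in MAD1L1, 2 in PRDM16 and 1 each in CSMD1 and RBFOX1, and low tiles 2, 2, 44, 4 and 6 in the same order. At these limits 5908 of the 130458 autosomal tiles were high and 6690 low. Tiles with 5 or more qualifying CpGs numbered 64 in RPTOR, 130 in MAD1L1, 96 in PRDM16, 26 in CSMD1 and 11 in RBFOX1. Of these, 24 were high in RPTOR, 35 in MAD1L1, 0 in PRDM16 and CSMD1, and 1 in RBFOX1. Low ones numbered 4, 4, 57, 7 and 4 in the same order. Over the autosomes 8010 such tiles were high and 8817 low, of a total that is not given here. The median share kept was 30.8% in RPTOR, 30.6% in MAD1L1, 20.5% in PRDM16, 26.5% in CSMD1 and 24.3% in RBFOX1, against 26.9% over all tiles.

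Single tiles ranged widely inside each gene. Among tiles with 5 or more qualifying CpGs, the highest share kept in MAD1L1 was at chr7:1932001-1933000, which went from 414 methylated of 529 reads on day 2 (78.3%) to 174 of 511 on day 7 (34.1%, Wilson 95% interval 30.1 to 38.3%). In RPTOR it was at chr17:78882001-78883000, with 84.0% on day 2 and 44.6% on day 7 (38.2 to 51.2%, 222 reads). The highest PRDM16 tile, chr1:3035001-3036000, went from 68.3% to 21.1% (16.9 to 26.1%). That was below the day 7 level of the highest tile in each of the other 4 genes. CSMD1 reached 23.3% (18.1 to 29.5%) at chr8:3123001-3124000 and RBFOX1 30.9% (25.2 to 37.3%) at chr16:6975001-6976000. Both intervals overlapped that of the PRDM16 tile, so their order is not settled. These tiles are extremes of 11 to 130 tiles and were ranked by the same libraries.

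In points, though not as ratios, the lowest tiles lay closer together. On day 7 they stood at 6.91% in RPTOR (chr17:78534001-78535000, 15.4 kb from the gene start), 9.79% in MAD1L1 (chr7:1913001-1914000), 8.88% in PRDM16 (chr1:3164001-3165000), 15.7% in CSMD1 (chr8:4441001-4442000) and 10.1% in RBFOX1 (chr16:6533001-6534000). The CSMD1 tile read 7.96% on day 6 (Wilson 95% interval 5.10 to 12.2%), below its day 7 level (11.5 to 21.0%). The RBFOX1 tile holds 36 listed CpGs, 14 of them members, and read 87.5%, 78.9% and 9.14% on days 0, 2 and 6. It lies in the window of that gene with the fastest decline, and gives 14 of the 20 members of that window. Placed by its distance from the 5′ start, the internal RBFOX1 window chr16:6483136-6483435, with 38 CpGs, falls inside this tile. This takes the distance to be alike in GRCh38.p14 and hg19, and positions were not converted between the builds.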

How the data were processed

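Methylation was measured by RRBS in 8 libraries, 1 per day. The deposited files list, per the file contents, the methylated and total reads of each CpG and a score equal to the rounded share of methylated reads. Positions are hg19, per the submitters' processing notes; the aligner and caller are not given in these sources. The gene spans come with the choice of genes, and the members and lists were chosen with earlier results of these data known. A level is the mean over CpGs of methylated over total reads, and counting errors are binomial. Rates were fitted with limma 3.58.1 (R 4.3.3) to log2(level + 0.01) less log2(expected + 0.01), with library weights. The 8-day fit was planned; days 0 and 1 chose the CpGs, so tests use days 2 to 7, a choice made after seeing the data, with weights of 0.276 (day 5) to 2.50 (day 7). The fit was tested on simulated data: over days 2 to 7, 4.44% of 45 windows were found at a planted 0.05 log2 units per day and 77.1% of 48 at 0.1. Of the 73 windows called, 1.37% had no planted change. The simulated CpGs were drawn independently, with no scatter shared by neighbouring CpGs, so these shares may not hold for the real libraries. Tables were made with Python 3.11.15, numpy 2.4.6, pandas 2.3.3 and scipy 1.17.1, and plots with matplotlib 3.10.9. The windows and tiles named are the extremes of each gene. Exon and intron positions were not used here.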

Additional observations from a re-analysis of the deposited data

How the results depend on the processing

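The day 7 differences from the expected level kept their direction in all 5 genes under every alternative tried. With 20 or more reads per CpG MAD1L1 had 1.957 points. Among CpGs at 90% or more, MAD1L1 had 2.99, PRDM16 -6.61 and CSMD1 -2.02 points. Classes that also used the starting level, split at 90%, gave 3.36 points in RPTOR and -5.05 in PRDM16. On day 2 the difference of MAD1L1 turned to -0.0042 (5 or more reads), -0.245 (20 or more reads), -0.068 (90% or more), -0.247 (reads pooled) and -0.288 points (starting level), all within 2 counting SEs of 0, and that of CSMD1 to -0.251 points (90% or more). High and low tiles numbered 8010 and 8817 with 5 or more CpGs per tile, and 5908 and 6690 with limits of 1.5 and 0.67 times.

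Days 0 and 1 chose the CpGs, so going past the adjusted limit of 0.05 in the 8-day fit is a description and no test. In its main setting RPTOR (slope 0.0329) and PRDM16 (-0.0691) were past that limit and MAD1L1 (0.0232) was not. MAD1L1 went past the limit with a pseudocount of 0.05 (0.0202), 100-kb windows (0.0228), no tile classes (0.0256) and CpGs at 90% or more (0.0275). It also did under the alternatives added after seeing the data, with 400-kb windows (0.0233), 2-Mb windows (0.0242) and days 2 to 7 (0.0388). RPTOR fell short without library weights (0.0392). Without day 6 or day 7, RPTOR (0.0169 and 0.0170) and PRDM16 (-0.0514 and -0.0531) also fell short. MAD1L1 went past the limit without day 0, 1 or 2 (0.0308, 0.0283 and 0.0233). Windows slower and faster numbered 1722 and 2138 of 15291 in the main setting, 89 and 117 without weights, and 820 and 950 over days 2 to 7. At 90% or more they numbered 832 and 637, at 400 kb 460 and 498, and at 2 Mb 149 and 152. Totals differ there, with 3117 or more windows at 400 kb and 1371 or more at 2 Mb, so fewer calls do not mean a smaller share. Leaving out each day in turn gave slopes of 0.0169 to 0.0407 in RPTOR, 0.0046 to 0.0308 in MAD1L1, -0.0777 to -0.0514 in PRDM16, -0.0127 to 0.0070 in CSMD1 and -0.0168 to 0.0024 in RBFOX1, with 0 to 1850 slower and 21 to 2264 faster windows. In that fit CSMD1 turned positive without day 6 (0.0044) and day 7 (0.0070), and RBFOX1 likewise (0.0024 and 0.0012).

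Over days 2 to 7, slopes without library weights were 0.0566 in RPTOR, 0.0395 in MAD1L1 and -0.0814 in PRDM16, none past the limit, and MAD1L1 also missed it by the exact permutation test (0.0395). CSMD1 passed with 20 or more reads (-0.0317), 400-kb windows (-0.0289) and 2-Mb windows (-0.0325). Leaving out each day gave 0.0482 to 0.0634 in RPTOR, 0.0312 to 0.0496 in MAD1L1, -0.0880 to -0.0760 in PRDM16, -0.0456 to -0.0122 in CSMD1 and -0.0245 to -0.0174 in RBFOX1, with 55 to 967 slower and 88 to 1114 faster windows. Totals of windows differ between settings, so the counts that follow cannot be compared as shares. Slower and faster windows numbered 820 and 950 of 15291 in the main fit and 0 and 0 without weights. They numbered 514 and 608 with 3 or more CpGs per window and 537 and 349 at 90% or more. At 400 kb there were 298 and 287, and at 2 Mb 118 and 170. The cause was not tested. No paired analysis was possible because each day has 1 library and the labels carry no replicate numbers. The course was run once, so no value here covers variation between cultures, and days 3 to 5 are limited by a median of 4 reads per CpG.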
